A study of Mus musculus with 4 samples.

Results

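Cadherins and protocadherins were followed in single nuclei of the adult mouse hippocampus. The genes were chosen by name, as every symbol that starts with Cdh or Pcdh and a number, or with Pcdha, Pcdhb or Pcdhg, without antisense symbols. This gave 93 members of 55422 genes, of which 23 were cadherins, 12 were protocadherins that stand outside the clusters, 14 belonged to the Pcdha cluster, 22 to Pcdhb and 22 to Pcdhg. Nuclear RNA was sequenced as 10x Genomics droplet libraries, 2 from Control mice and 2 from Kat6a-cKO mice. Control mice were Kat6a-f/f, with loxP sites around part of Kat6a, and their labels name no Cre. Kat6a-cKO mice carried NEX-cre with the same Kat6a-f/f alleles, so both groups have the loxP sites. NEX-cre is expressed from the Neurod6 locus in excitatory neurons of the forebrain, and the deletion is directed to them rather than to inhibitory neurons or glia. KAT6A is a histone acetyltransferase, and the series title names RSPO2 and Wnt signalling in CA3. The labels give no animal or day for a library, so p-values measure the spread between these samples, which may be technical.

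Classical cadherins join neighbouring cells through calcium-dependent binding of their extracellular domains, and their cytoplasmic tails bind catenins that link them to actin. Type I cadherins such as Cdh2 and Cdh4 and type II cadherins such as Cdh6 and Cdh9 differ in the details of that binding, and in the hippocampus Cdh9 is known for its part in the synapses that dentate granule cells make on CA3 cells. Protocadherins lack the catenin-binding tail. Those outside the clusters are mostly encoded by separate genes, while the clustered Pcdha, Pcdhb and Pcdhg genes give each neuron a combination of surface isoforms and are known for self-avoidance of dendrites.

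The libraries held 171323466 to 186897245 counts, and 7613 to 8144 nuclei each with at least 5000 unique molecular identifiers (UMIs) after doublets were left out. Of 31465 nuclei, 24690 fell into 7 classes rebuilt from marker genes and tested for genotype. CA3-like nuclei numbered 470 to 651 per library, CA1-like nuclei 1433 to 1794, dentate granule-like nuclei 2705 to 3405 and inhibitory (inhibitory neuron-like) nuclei 569 to 713. Astrocyte-like nuclei numbered 49 to 132, oligodendrocyte-like nuclei 46 to 154 and oligodendrocyte precursor (OPC)-like nuclei 93 to 175. The nuclei were clustered without the members, so the levels below did not form the classes. A pair of libraries shared 15 to 20 cell barcodes. The Cre entry was at 0 CPM in CA3-like and CA1-like nuclei of both Control libraries and at 1.77 to 2.97 CPM in both Kat6a-cKO libraries, where CPM is the usual scaling of a gene's counts by the summed counts of its class. Neurod6 was lower in both Kat6a-cKO libraries in these classes, at 54.3 and 45.7 CPM against 73.9 and 66.5 in CA3-like nuclei. Kat6a itself was at 63.3 and 66.9 CPM in Control and at 58.8 and 65.6 in Kat6a-cKO CA3-like nuclei, with ranges that overlapped. The deleted stretch is not given in the sources used here, so counts over the whole gene do not check the labels.

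Of the 93 members, 24 were listed at 0 counts over all nuclei, and 32 passed the filter on low counts in at least 1 class. Of these, 31 were cadherins or protocadherins outside the clusters, and 13 passed in all 7 classes. The 4 members outside the clusters that passed in no class were Cdh5, a cadherin of blood vessel endothelium, with 101 counts, Cdh16 with 34, Cdh26 with 31 and Cdh15, a muscle cadherin, with 3. All 22 Pcdhb genes were listed at 0, 33 clustered members had 1 to 60 counts over all nuclei, and Pcdha1 alone had more, with 753. The clustered members lie next to each other on chromosome 18 of GRCm38, and those of the Pcdha cluster share 3-prime exons, as do those of the Pcdhg cluster. Each of the 58 was overlapped by a read-through gene of the GENCODE M21 annotation, and 57 had no base free of another annotated gene.

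The read-through gene Gm42416 ran from 36952741 to 37840200, itself with 6 counts. Taf7, a subunit gene of a general transcription factor that lies inside this span on the other strand, had 38 counts. Diaph1, a formin gene on the minus strand just beyond it, from 37843601 to 37935476, had 33540. The highest total of any of the 56 genes inside the span was 38. How the authors counted reads that overlap several genes is not given in the sources used here, and whether such reads went uncounted was not tested. A count of 0 is therefore not read as an upper limit on the expression of a clustered gene.

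Promoters are shown for 4 members that the results turn on. Cdh24 and Cdh6 separated CA3-like from CA1-like nuclei in opposite directions, and Cdh20 and Pcdh9 had a genotype effect that differed between classes. Each sequence is the 250 bases before the RefSeq start (GRCm38.p6), with CG dinucleotides in capitals. Promoter entries matched 22 members by symbol, and none is shown for Pcdh11x.

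Cdh24 (chr14:54641365-54641614, minus strand): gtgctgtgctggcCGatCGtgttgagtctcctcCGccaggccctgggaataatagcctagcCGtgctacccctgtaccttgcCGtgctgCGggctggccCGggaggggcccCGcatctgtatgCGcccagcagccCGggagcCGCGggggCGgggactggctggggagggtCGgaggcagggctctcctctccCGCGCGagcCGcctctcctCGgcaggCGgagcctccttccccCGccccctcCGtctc

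Cdh6 (chr15:13173676-13173925, minus strand): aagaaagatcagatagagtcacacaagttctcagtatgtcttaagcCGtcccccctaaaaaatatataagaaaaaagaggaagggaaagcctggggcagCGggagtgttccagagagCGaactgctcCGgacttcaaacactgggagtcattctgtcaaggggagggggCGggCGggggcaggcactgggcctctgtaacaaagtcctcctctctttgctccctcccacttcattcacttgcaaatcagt

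Cdh20 (chr1:104768270-104768519, plus strand): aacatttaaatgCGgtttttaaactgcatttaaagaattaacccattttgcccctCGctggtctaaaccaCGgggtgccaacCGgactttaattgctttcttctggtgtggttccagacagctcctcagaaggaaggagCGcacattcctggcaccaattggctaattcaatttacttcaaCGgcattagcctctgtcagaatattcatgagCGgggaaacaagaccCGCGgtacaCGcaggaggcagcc

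Pcdh9 (chr14:93890680-93890929, minus strand): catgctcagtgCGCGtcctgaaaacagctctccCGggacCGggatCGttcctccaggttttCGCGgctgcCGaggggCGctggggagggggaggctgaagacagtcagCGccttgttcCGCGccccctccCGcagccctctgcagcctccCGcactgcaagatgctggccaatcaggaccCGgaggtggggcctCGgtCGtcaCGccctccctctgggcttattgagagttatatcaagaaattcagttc

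The Cdh24 window held 22 CG dinucleotides, a number reached by 14.6% of the 27025 promoters of the same length. The Pcdh9 window held 18, reached by 21.6%, the Cdh20 window 10, reached by 38.2%, and the Cdh6 window 6, reached by 50.5%. The median was 9 over the 22 matched members and 6 over all promoters. No promoter state was measured, so these counts describe sequence only.

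Among the principal neurons, CA3-like nuclei were marked by Cdh9, Cdh24 and Cdh23 against CA1-like nuclei, and CA1-like nuclei by Cdh6, Cdh4, Cdh20 and Pcdh15. Of 31 members tested, 11 differed between the classes, with 5 higher in CA3-like and 6 higher in CA1-like nuclei. A call here needed an adjusted p under 0.05 and an absolute log2 fold change of at least 1, which 15.4% of all genes tested met. The median log2 difference, CA3-like minus CA1-like, was -0.20 over the members and -0.02 over all genes. Levels are compared between classes for 1 gene at a time, since CPM is not corrected for gene length.

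Cdh9, a type II cadherin, stood at 707 and 683 CPM in the Control libraries and 684 and 677 in the Kat6a-cKO libraries of CA3-like nuclei. In CA1-like nuclei the same libraries gave 22.4, 27.7, 26.9 and 25.6 CPM. All 4 CA3-like values lay far above all 4 CA1-like values, a log2 difference of 4.75 ± 0.06 (SE, edgeR adjusted p = 3.10e-22). Cdh6, another type II cadherin, went the other way, at 0.591 to 0.847 CPM in CA3-like nuclei and 26.2 to 33.3 in CA1-like nuclei (log2 difference -5.34 ± 0.18, edgeR adjusted p = 3.42e-16). Cdh24, a type II cadherin, was at 50.2 to 57.2 CPM in CA3-like nuclei and 11.9 to 14.9 in CA1-like nuclei, and the ranges were again apart (2.05 ± 0.07, edgeR adjusted p = 1.11e-15). Cdh23, known from the tip links of hair cells, was at 7.24 to 10.6 CPM against 0.936 to 1.22 (3.21 ± 0.17, edgeR adjusted p = 8.35e-13). Cdh4, or R-cadherin, was at 11.4 to 16.7 CPM in CA3-like and 51.5 to 65.3 in CA1-like nuclei. Cdh2, the N-cadherin of excitatory synapses, was higher in CA3-like nuclei, at 645 to 686 CPM against 308 to 354 (1.04 ± 0.04, edgeR adjusted p = 4.21e-15).

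**Figure D1:**
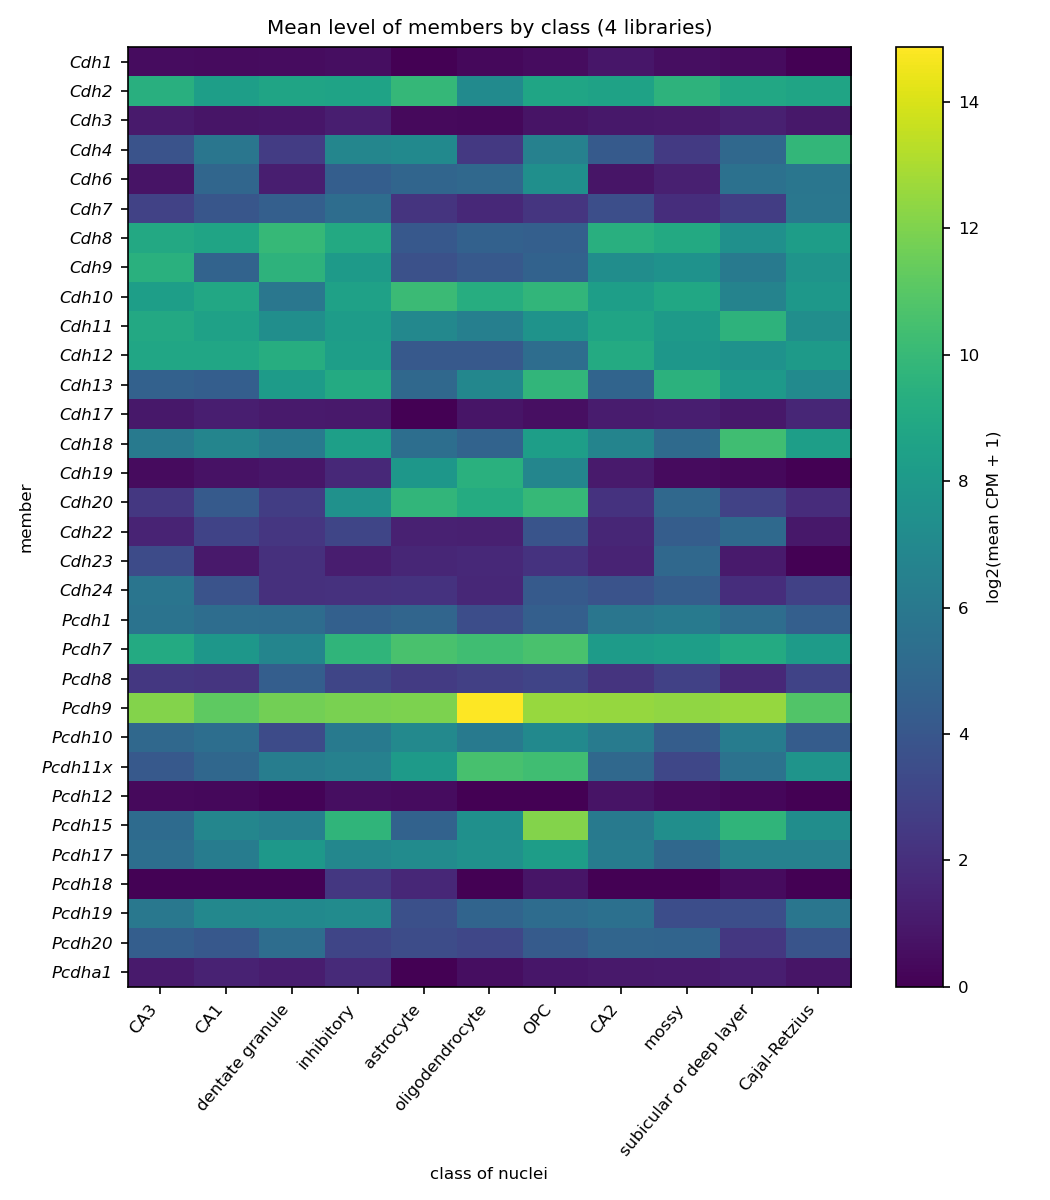
Heat map of the 32 tested members (rows) by class of nuclei (columns). The colour gives log2(mean CPM + 1) over 4 libraries, and the 4 classes at the right were described but not tested. Cdh9 is at a mean of 688 CPM in CA3-like and 785 in dentate granule-like nuclei against 25.7 in CA1-like nuclei, and Pcdh15 reaches 4385 in OPC-like nuclei.

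Dentate granule-like nuclei shared high Cdh9 with CA3-like nuclei and had more Cdh13, Pcdh17 and Pcdh8. Between CA3-like and dentate granule-like nuclei 16 of 31 members differed, 7 higher in CA3-like and 9 higher in dentate granule-like nuclei, where 22.1% of all genes were called. Cdh13, or T-cadherin, which is held to the membrane by a lipid anchor, was at 18.6, 20.5, 33.3 and 23.0 CPM in CA3-like nuclei and at 262, 284, 314 and 294 in dentate granule-like nuclei. Every granule-like value lay above every CA3-like value (log2 difference, CA3-like minus granule-like, -3.51 ± 0.12, edgeR adjusted p = 5.71e-16). Pcdh17 was at 37.3 to 43.8 CPM against 236 to 255, and Pcdh8, a protocadherin known to be induced by neuronal activity, was at 2.65 to 5.78 against 14.0 to 24.0. Cdh24, Cdh10 and Pcdh7 were higher in CA3-like nuclei, by 4.19 ± 0.09, 2.58 ± 0.09 and 2.43 ± 0.07 on the log2 scale.

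Between CA1-like and dentate granule-like nuclei 16 of 31 members also differed, 8 in each direction, where 19.3% of all genes were called. Cdh9 was lower in CA1-like nuclei (-4.85 ± 0.06, edgeR adjusted p = 2.88e-23), as were Cdh13 (-3.72 ± 0.12) and Pcdh8 (-2.33 ± 0.11). Cdh6 (4.50 ± 0.12), Cdh4 (3.55 ± 0.06) and Cdh10 (3.21 ± 0.09) were higher. Cdh8, a type II cadherin, was at 952 to 1005 CPM in dentate granule-like nuclei and at 382 to 430 in CA1-like nuclei, ranges that did not meet.

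The 5 members on chromosome 15 are all type II cadherins, and they did not follow one pattern. Cdh6 (13028701 to 13173675), Cdh9 (16728756 to 16857094), Cdh10 (18818947 to 19014236), Cdh12 (20449265 to 21589533) and Cdh18 (22549022 to 23474418) follow each other along GRCm38. Cdh9 and its neighbour Cdh10 had opposite differences between CA1-like and dentate granule-like nuclei. Cdh10 was at 436 to 533 CPM in CA1-like and 43.3 to 81.8 in dentate granule-like nuclei. Cdh12 was at a mean of 452 CPM in both CA3-like and CA1-like nuclei, and of 608 in dentate granule-like nuclei. Cdh18 was highest in subicular or deep layer-like nuclei, at a mean of 1277 CPM, a class that was described and not tested.

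**Figure D2:**
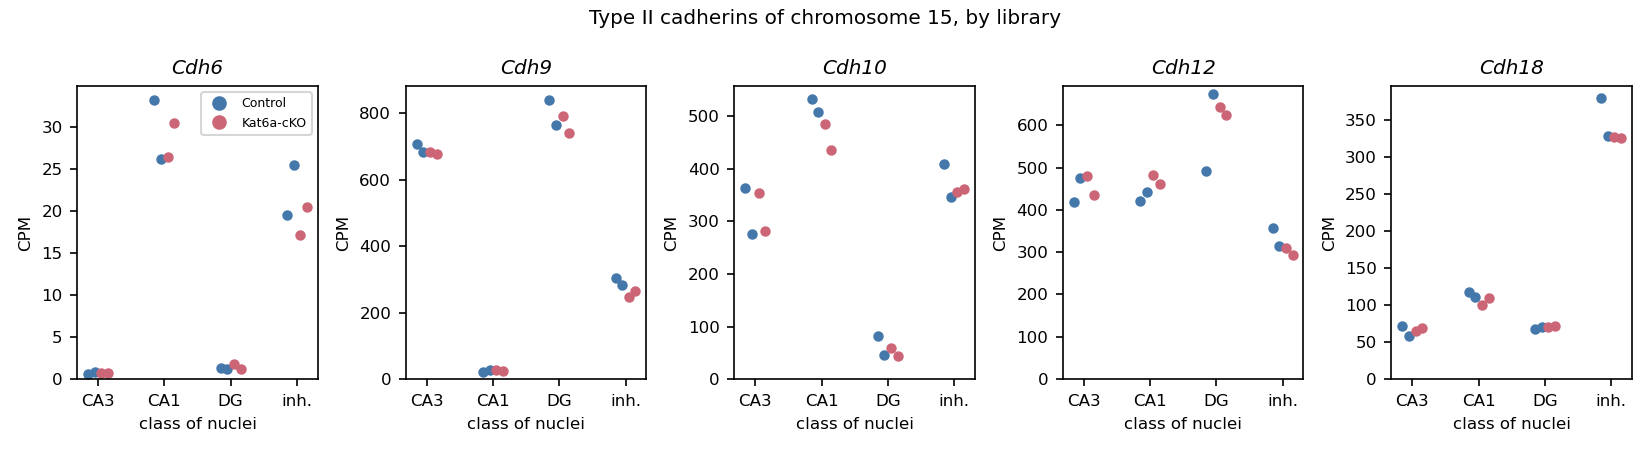
CPM (y axis, from 0) of the 5 chromosome 15 cadherins in CA3-like, CA1-like, dentate granule-like (DG) and inhibitory (inh.) nuclei. Each point is 1 library, blue for Control and red for Kat6a-cKO. Cdh9 is low in CA1-like nuclei, where no library passes 27.7 CPM, while Cdh10 is low in dentate granule-like nuclei, where no library passes 81.8.

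Inhibitory nuclei carried more Cdh20, Pcdh15, Cdh13, Cdh4 and Pcdh18 than the mean of the CA3-like, CA1-like and dentate granule-like nuclei. Of 31 members, 12 were higher and 4 lower in inhibitory nuclei, where 22.9% of all genes were called in either direction. The median log2 difference was 0.51 over the members and -0.02 over all genes. With no filter on low counts the direction turned, to -0.24 over 69 members (31 above 0) and -0.07 over all genes. Cdh20, a type II cadherin, was at 179, 175, 204 and 181 CPM in inhibitory nuclei, against at most 27.8 in any library of the 3 excitatory classes (4.50 ± 0.11, edgeR adjusted p = 5.92e-19). Pcdh15, which pairs with Cdh23 in hair cells, was at 771.5 to 864 CPM (3.48 ± 0.12, edgeR adjusted p = 1.43e-16). Pcdh18 was at 3.72 to 4.92 CPM and no higher than 0.141 in any library of the excitatory classes, near the level of single counts. The 4 members lower in inhibitory nuclei were Cdh24, Pcdh20, Cdh23 and Pcdh1. Free RNA in the droplets made up an estimated 7.01% to 10.2% of the counts of inhibitory nuclei and 3.0% to 5.68% of those of the 3 excitatory classes, and its part in these differences was examined only by subtracting it.

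In glia the levels are given without a test between classes. Some members were high in all 3 glial classes, such as Pcdh7 at means of 1546 CPM in astrocyte-like, 1270 in oligodendrocyte-like and 1529 in OPC-like nuclei, and Cdh20 at 872, 570 and 992. Others were highest in 1 of them. Pcdh9 was at 29876 ± 1079 CPM (SD, n = 4 libraries) in oligodendrocyte-like nuclei, with the next class, OPC-like nuclei, at a mean of 5988. Cdh19 was at 703 ± 89.5 there and at a mean of 232 in astrocyte-like nuclei. Both stood apart from the next class by more than their spread. Pcdh11x, a protocadherin gene of the X chromosome, was at 1492 ± 278 in oligodendrocyte-like nuclei, within its spread of the OPC-like mean of 1280. Pcdh15 was at 4385 ± 164 in OPC-like nuclei against 830 in inhibitory nuclei, the next of the 7 classes. Cdh6 was at 171 ± 3.68 and Cdh13 at 867 ± 65.7 in the same precursors. Astrocyte-like nuclei had the highest Cdh2, at 941 ± 112, and Cdh10, at 1127 ± 70.4. They also had the highest Cdh4 of the 7 classes, at 134 ± 32.8, which overlapped the inhibitory mean of 110. Among classes that were described only, Cajal-Retzius-like nuclei had a mean Cdh4 of 926 CPM and mossy-like nuclei a mean Cdh23 of 32.1.

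Among members at 10 CPM or more, 3 were highest in CA3-like nuclei of all 7 classes, namely Cdh24, Cdh11 and Pcdh1. Cdh11, a type II cadherin, was at 501 ± 15.9 CPM against 362 in CA1-like nuclei. Pcdh1 was at 49.5 ± 8.83 against 38.9, close to its own spread. No member at 10 CPM or more was highest in CA1-like nuclei. Dentate granule-like nuclei led for 5 members, among them Cdh8 at 987 ± 24.2, Pcdh20 at 39.5 ± 5.59 and Pcdh8 at 20.5 ± 4.46. Among the 7 classes, inhibitory nuclei led for Cdh7 at 39.5 ± 5.78, Pcdh19 at 145 ± 7.56 and Cdh18 at 341 ± 26.5. Pcdh19, the gene of a human epilepsy linked to the X chromosome, was at a mean of 135 in dentate granule-like nuclei. Its library values there, 128 to 151 CPM, overlapped those of inhibitory nuclei, 134 to 150. Cdh18 was at 321 in OPC-like nuclei, within the spread of the leading class.

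The genotype comparison asks which members change in nuclei of Kat6a-cKO mice. Pcdh11x in CA1-like nuclei was the only member that passed the test in any of the 7 classes (edgeR quasi-likelihood test, adjusted p under 0.05). In CA1-like nuclei it was at 23.0 and 19.7 CPM in the Control libraries and at 39.5 and 40.7 in the Kat6a-cKO libraries. Both Kat6a-cKO values lay above both Control values, and the log2 fold change, Kat6a-cKO over Control, was 0.93 ± 0.11 (SE, edgeR adjusted p = 0.0454). This was 1 of 31 members tested, where 0.0721% of all genes were called. At an unadjusted p under 0.05 there were 7 members, against 8.69% of all genes, and DESeq2 called 1 member, again Pcdh11x, against 0.679%. Pcdh11x was higher in each of 3 CA1-like clusters taken alone (clusters 3, 4 and 8), by 0.75, 0.82 and 1.43 (edgeR adjusted p = 0.0283, 0.0331 and 0.0328), an alternative chosen after seeing the data. These clusters are parts of the same nuclei from the same libraries, so their fits are not independent of the CA1-like result. The smallest CA1-like cluster, cluster 20, was not fitted alone and gave 24.1 and 9.43 CPM in the Control libraries, against 23.6 and 22.0 in those of Kat6a-cKO, with overlapping ranges.

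Free RNA differed in the same direction. In near-empty droplets Pcdh11x was at 53.5 and 43.2 CPM in Control and at 73.4 and 68.4 in Kat6a-cKO. With free RNA subtracted, the log2 fold change in CA1-like nuclei was 0.97 and the edgeR adjusted p was 0.217. Over all genes, 1 was then called in this class, against 12 without the subtraction. Pcdh11x is abundant in oligodendrocyte-like and OPC-like nuclei. The 7 OPC markers summed to 539 and 640 CPM in CA1-like nuclei of Control mice, against 834 and 759 in those of Kat6a-cKO mice. Tnr made up most of that sum, at 513 and 608 CPM against 803 and 728. The defining markers Pdgfra and Cspg4 were near 0, at 0.416 and 0.539 CPM against 1.13 and 0.967, and at 0.208 and 0.190 against 0.483 and 0.355. Of the 7 markers, these 3 were higher in both Kat6a-cKO libraries, and Vcan was lower in both. Oligodendrocyte markers summed to 105 and 98.5 CPM in Control against 92.4 and 80.7 in Kat6a-cKO CA1-like nuclei. Astrocyte markers summed to 895 and 962 against 657 and 628, mostly Gpc5. Both sums were lower in Kat6a-cKO. The part of these markers in the result was not tested.

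**Figure D3:**
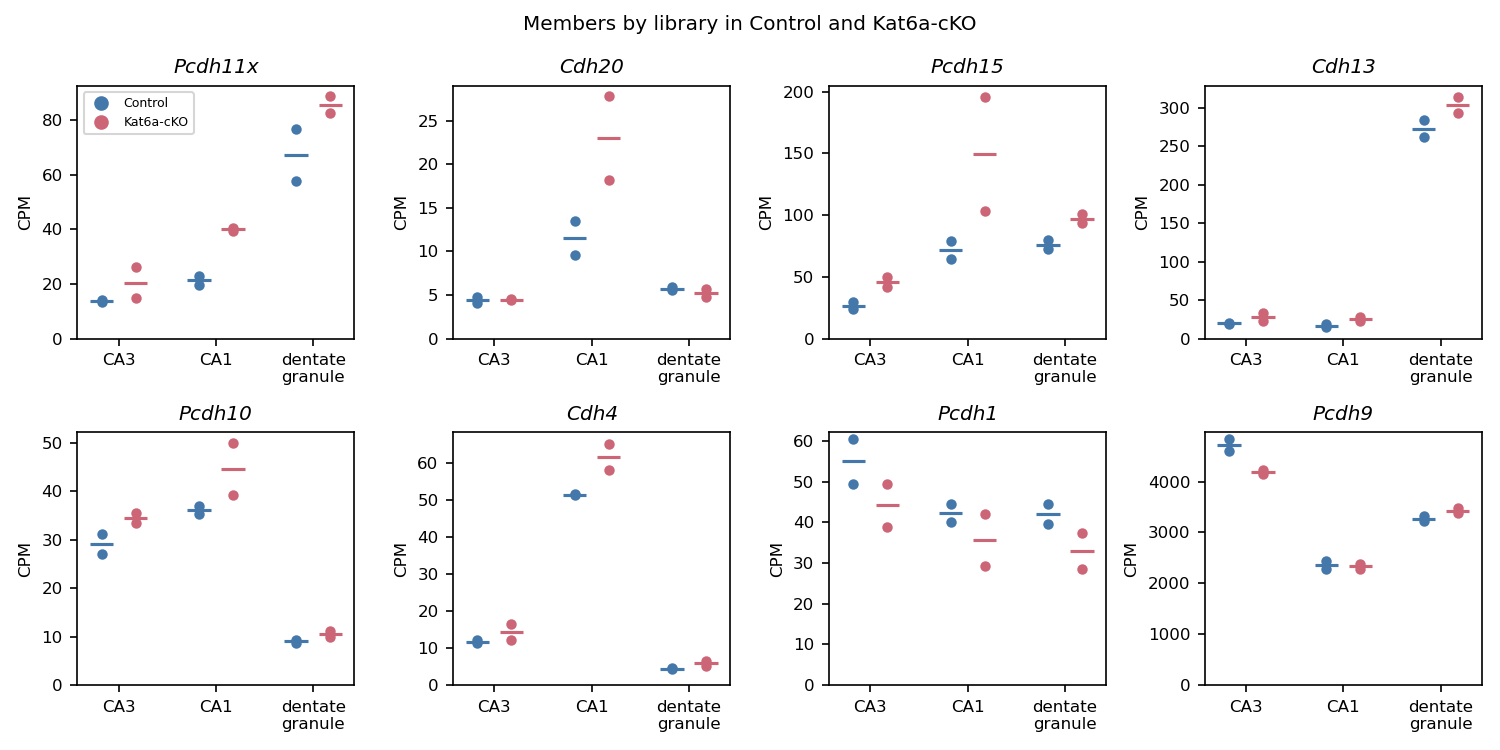
CPM (y axis, from 0) of 8 members in CA3-like, CA1-like and dentate granule-like nuclei. Points are libraries, blue for Control and red for Kat6a-cKO, and bars are means of 2 libraries. Pcdh11x in CA1-like nuclei is at 39.5 and 40.7 in Kat6a-cKO against 23.0 and 19.7 in Control. Cdh20 parts by genotype in CA1-like nuclei but not in the other 2 classes, where it is low, at 4.02 to 5.86 CPM.

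The members next in order in CA1-like nuclei did not pass the test. Cdh20 was at 13.5 and 9.57 CPM in Control and 27.8 and 18.2 in Kat6a-cKO (log2 fold change 1.02 ± 0.24, edgeR adjusted p = 0.249). Pcdh15 was at 64.7 and 79.3 against 196 and 104 (1.09 ± 0.26, edgeR adjusted p = 0.262). The Kat6a-cKO values lay above the Control values for both genes, with Kat6a-cKO replicate 1 the higher of its pair. Without Kat6a-cKO replicate 2, edgeR called more members in CA1-like nuclei, and also more of all genes, than with all libraries. Fitted by cluster, the log2 fold change of Pcdh15 was 0.10 in cluster 3 (edgeR adjusted p = 0.913), 1.17 in cluster 4 (0.00456) and 1.00 in cluster 8 (0.926). Cdh13 had 0.22, 0.98 and 0.36 in the same clusters and was called in cluster 4 (edgeR adjusted p = 0.00954). The difference between clusters was not tested. Cluster 3 gave 507 nuclei in Kat6a-cKO replicate 1 and 699, 786 and 807 in the other libraries, and the part of cluster shares in the CA1-like values was not tested. Over all CA1-like nuclei, Cdh13 had a log2 fold change of 0.61 ± 0.17, Pcdh10 of 0.33 ± 0.11 and Cdh4 of 0.28 ± 0.09. In near-empty droplets Cdh13 was at 164 and 171 CPM in Control and 224 and 177 in Kat6a-cKO. Free RNA was an estimated 3.66% to 4.99% of CA1-like counts, and its part in the Cdh13 values was not tested.

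In CA3-like nuclei no member of 28 passed the edgeR test, where 0.0205% of all genes were called. At an unadjusted p under 0.05 there were 6 members, against 8.05% of all genes, and DESeq2 called 1 member, against 0.246% of all genes. Pcdh15 had the smallest p, at 23.6 and 29.5 CPM in the Control libraries against 50.0 and 41.6 in those of Kat6a-cKO. The groups did not overlap, and the log2 fold change was 0.80 ± 0.13 (edgeR adjusted p = 0.118). DESeq2 called this gene (adjusted p = 0.000960). So did edgeR without Control replicate 1, Control replicate 2 or Kat6a-cKO replicate 2, where it called more members and more of all genes than with all libraries. Without Kat6a-cKO replicate 1 edgeR called no member, and the log2 fold change of Pcdh15 was 0.64. Each fit without 1 library leaves 1 library in a group, so the spread comes from the 2 libraries of the other group. Cdh13 was at 18.6 and 20.5 CPM against 33.3 and 23.0 (0.53 ± 0.17). Pcdh1 was at 49.5 and 60.5 against 38.8 and 49.4 (-0.31 ± 0.12). Pcdh11x was at 13.4 and 14.0 against 26.1 and 14.9 (0.58 ± 0.23), and its fold change was 0.11 without Kat6a-cKO replicate 1, the one library that stood above the rest. The fold changes of Pcdh10 and Pcdh17 were 0.26 ± 0.10 and 0.20 ± 0.09. OPC markers summed to 532 and 544 CPM in Control and 634 and 616 in Kat6a-cKO CA3-like nuclei, again mostly Tnr. Pdgfra was near 0, at 0.591 and 1.20 CPM against 2.57 and 1.42, as was Cspg4, at 0.0739 and 0.141 against 0.357 and 0.248. Tnr, Pdgfra, Cspg4 and Neu4 were higher in both Kat6a-cKO libraries. Lhfpl3 was lower in both, at 20.8 and 22.7 CPM against 18.4 and 16.5, and Vcan and C1ql1 overlapped. The part of these markers in the CA3-like values was not tested. The median log2 fold change was 0.02 over the 28 members and -0.01 over all genes. In the other classes the members' median was 0.10 in CA1-like (20 of 31 above 0), 0.05 in dentate granule-like (17 of 30), 0.09 in inhibitory (17 of 30), 0.09 in astrocyte-like (13 of 16), 0.20 in oligodendrocyte-like (15 of 17) and 0.10 in OPC-like nuclei (15 of 23). The median over all genes lay between -0.01 and 0.01 in each class. The sign of the members' median turned on single libraries in 4 classes. Without Control replicate 2 it was -0.06 in CA3-like, -0.00054 in dentate granule-like and -0.0063 in astrocyte-like nuclei (9 of 21 above 0). Without Kat6a-cKO replicate 1 it was -0.01 in CA3-like, -0.02 in dentate granule-like and -0.10 in oligodendrocyte-like nuclei (7 of 18 above 0). With 1 library left out in turn, the median spanned 0.0041 to 0.15 in CA1-like, 0.03 to 0.08 in inhibitory and 0.04 to 0.09 in OPC-like nuclei. With no filter on low counts it turned to -0.05 in inhibitory (18 of 45 above 0) and -0.03 in dentate granule-like nuclei (27 of 60). It stayed above 0 in the other classes.

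In dentate granule-like nuclei no member of 30 passed the edgeR test, where 0.52% of all genes were called. At an unadjusted p under 0.05 there were 7 members, against 10.1% of all genes, and DESeq2 called 1, against 1.31%. Pcdh15 again had the smallest p, at 72.3 and 79.5 CPM in Control and 101 and 93.3 in Kat6a-cKO (0.37 ± 0.07, edgeR adjusted p = 0.0732). Pcdh11x was at 57.7 and 76.7 against 88.9 and 82.6 (0.37 ± 0.11). Both pairs of groups were apart. OPC markers summed to 947 and 967 CPM in granule-like nuclei of Control mice, against 1047 and 1044 in those of Kat6a-cKO mice. Tnr made up most of this sum, at 917 and 930 CPM against 1013.9 and 1012.5. Astrocyte markers summed to 1380 and 1394 CPM against 1517 and 1544, mostly Slc4a4, at 1271 and 1289 against 1388 and 1437. Slc4a4 is also among the most raised genes of granule-like cluster 0. Pdgfra, Cspg4, Slc1a3 and Aqp4 overlapped between the groups, while Gpc5 and Gja1 were higher in both Kat6a-cKO libraries. In near-empty droplets Pcdh15 was at 147 and 126 CPM against 227 and 168, also higher in Kat6a-cKO, as Pcdh11x was. The part of these values in the result was not tested, and with free RNA subtracted the log2 fold change of Pcdh15 was 0.36 (edgeR adjusted p = 0.338). Over all genes, 2 were then called in this class, against 90 without the subtraction. DESeq2 called Pcdh15. When Control replicate 2 or Kat6a-cKO replicate 2 was left out, edgeR called some members, and also more of all genes than with all libraries. Pcdh1 (-0.34 ± 0.11) and Pcdh8 (-0.37 ± 0.16) were lower in both Kat6a-cKO libraries, while Cdh4 (0.44 ± 0.17) and Cdh13 (0.17 ± 0.07) were higher.

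In inhibitory nuclei, to which the deletion is not directed, no member of 30 passed the edgeR test, where 0.0272% of all genes were called. At an unadjusted p under 0.05 there were 4 members, against 6.6% of all genes, and DESeq2 called 0, against 0.0749%. Cdh17, the cadherin of gut epithelium, had the smallest p at 0.480 and 0.651 CPM against 1.73 and 1.30, levels of few counts. In near-empty droplets it was at 22.7 and 30.4 CPM in the Control libraries and at 41.0 and 28.2 in those of Kat6a-cKO, above its levels in these nuclei, and with free RNA subtracted it was not among the genes tested. Pcdh10 was at 56.5 and 64.4 CPM in Control and 69.2 and 71.4 in Kat6a-cKO (0.23 ± 0.09, edgeR adjusted p = 0.632). Pcdh1 was at 23.5 and 27.3 against 18.3 and 22.0 (-0.32 ± 0.13). Cdh9 and Cdh11 had fold changes of -0.18 ± 0.07 and 0.14 ± 0.07, and Cdh19 of -0.75 ± 0.38. The log2 fold change of Pcdh1 was -0.31 to -0.34 in CA3-like, dentate granule-like and inhibitory nuclei and -0.22 in CA1-like nuclei, in comparisons that use the same libraries, and the CA1-like groups overlapped. It was -0.09 ± 0.48 in astrocyte-like nuclei, with overlap, and 0.54 ± 0.38 in OPC-like nuclei, at 19.5 and 16.2 CPM against 30.3 and 19.8. Pcdh1 passed the test in none of these classes.

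**Figure D4:**
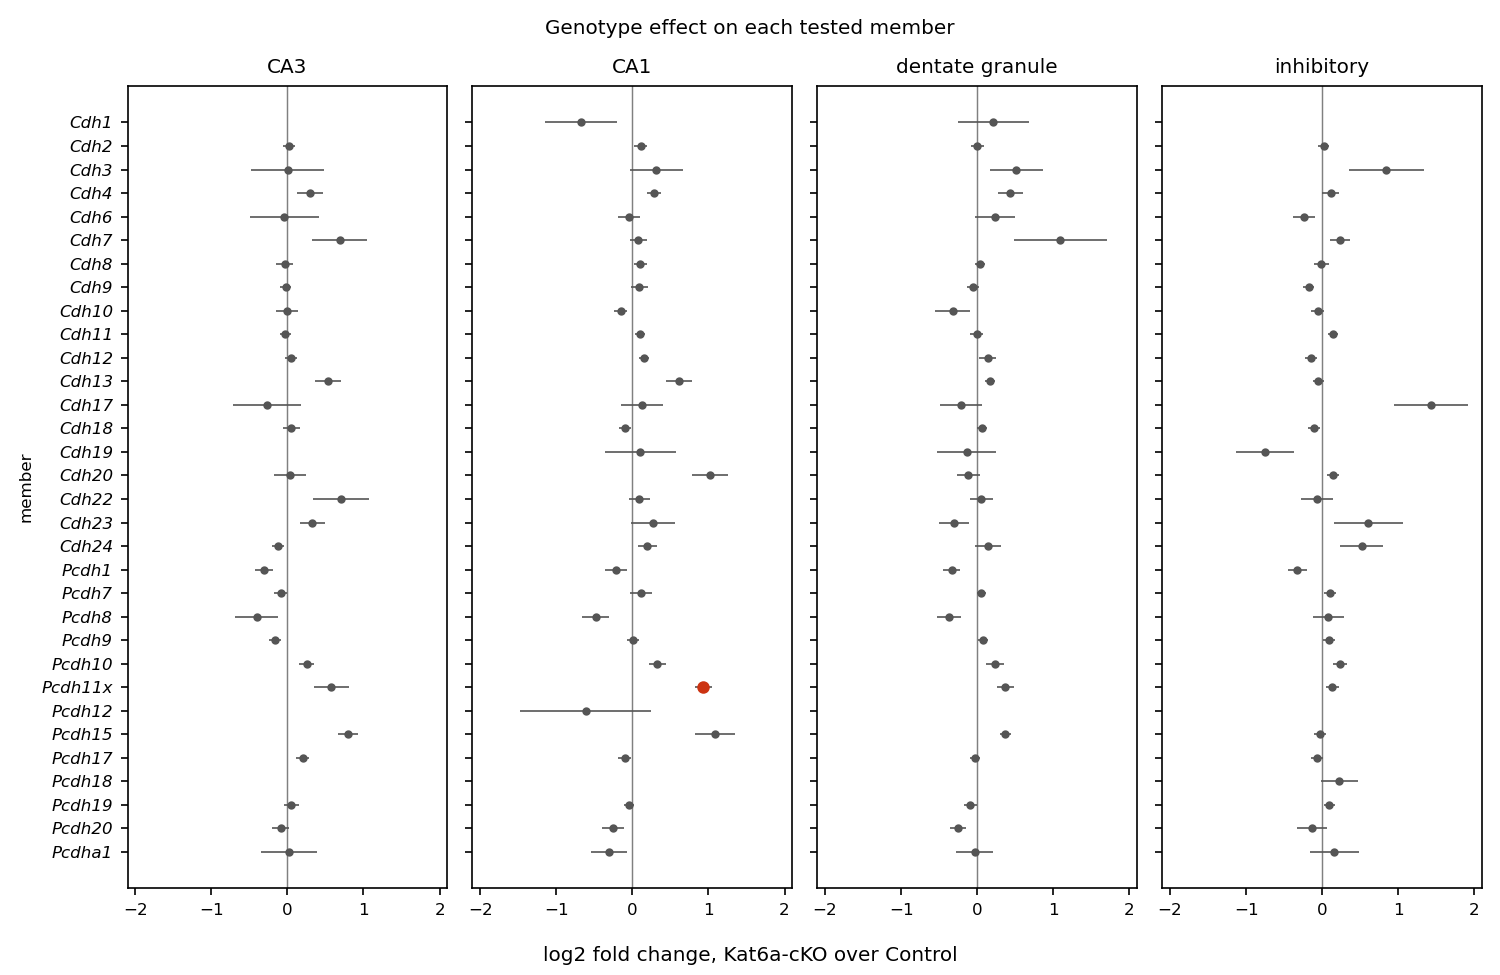
Log2 fold change, Kat6a-cKO over Control (x axis), of each tested member in 4 classes of nuclei. Bars are SE derived from the edgeR F statistic, and the larger red point passed an adjusted p of 0.05. That point is Pcdh11x in CA1-like nuclei, at 0.93, and the CA3-like, dentate granule-like and inhibitory panels hold none.

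In glia no member passed the edgeR test among 16 in astrocyte-like, 17 in oligodendrocyte-like and 23 in OPC-like nuclei, where 0.0312%, 0% and 0.391% of all genes were called. At an unadjusted p under 0.05 there were 2, 0 and 3 members, against 5.96%, 5.21% and 8.17% of all genes, and DESeq2 called 0 in each, against 0%, 0% and 0.0115%. In astrocyte-like nuclei Pcdh11x had the smallest p of the 16 members tested, at 248 and 152 CPM in the Control libraries and 316 and 358 in those of Kat6a-cKO. These groups did not overlap (0.69 ± 0.21, edgeR adjusted p = 0.464). The 3 glial classes held the fewest counts of the 7 tested, from 284542 to 1126712 per library.

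The genotype effect was then compared between classes by a test of the difference itself. For Cdh20 the log2 fold change in CA1-like nuclei exceeded that in dentate granule-like nuclei by 1.17 ± 0.18 (SE, edgeR adjusted p = 0.0279), 1 of 31 members where 0.129% of all genes were called. There 6 members had an unadjusted p under 0.05, against 7.23% of all genes, and DESeq2 called 1, against 0.0895%. In dentate granule-like nuclei Cdh20 was at 5.86 and 5.62 CPM in Control nuclei and at 5.66 and 4.79 in Kat6a-cKO nuclei, low levels with overlapping ranges. For Pcdh9 the log2 fold change in CA3-like nuclei was below that in dentate granule-like nuclei by a difference of -0.26 ± 0.05 (edgeR adjusted p = 0.00831), 1 of 30 members where 0.278% of all genes were called. There 7 members had an unadjusted p under 0.05, against 6.03% of all genes, and DESeq2 called 0, against 0.0463%. In CA3-like nuclei Pcdh9 was at 4838 and 4608 CPM in Control and at 4155 and 4233 in Kat6a-cKO, both lower. In dentate granule-like nuclei it was at 3319 and 3220 against 3377 and 3479, both higher. Neither single-class effect of Pcdh9 passed the test (edgeR adjusted p = 0.63 in CA3-like and 0.771 in dentate granule-like nuclei). Between CA3-like and CA1-like nuclei 0 of 30 members differed in their edgeR genotype effect, where 0.247% of all genes were called. At an unadjusted p under 0.05 there were 4, against 6.53% of all genes, and DESeq2 called 0, against 0.0722%. With any 1 library left out, edgeR called some members there, and more of all genes than with all libraries. The Pcdh11x effect was not called as different between classes. It was larger in CA1-like than in dentate granule-like nuclei by 0.59 ± 0.16 (edgeR adjusted p = 0.304). CA3-like minus CA1-like, the Pcdh11x difference was -0.38 ± 0.21 (edgeR adjusted p = 0.832).

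The Pcdh9 call was lost with DESeq2 (difference -0.24, adjusted p = 0.452), without Kat6a-cKO replicate 1 (-0.25, edgeR adjusted p = 0.320) and without Kat6a-cKO replicate 2 (-0.25, adjusted p = 0.227). The Cdh20 call was lost without Control replicate 1 (1.35, edgeR adjusted p = 0.0745), Control replicate 2 (0.95, adjusted p = 0.0874) or Kat6a-cKO replicate 1 (0.92, adjusted p = 0.285). Both were lost with free RNA subtracted, where the Pcdh9 difference was -0.25 (edgeR adjusted p = 0.199) and the Cdh20 difference 1.98 (0.117). Calls over all genes also fell with this subtraction, from 48 to 11 in the Pcdh9 comparison and from 23 to 10 in the Cdh20 comparison. In near-empty droplets Cdh20 was at 70.9 and 68.2 CPM in the Control libraries and at 94.2 and 86.6 in those of Kat6a-cKO. Free RNA was an estimated 4.48% to 5.68% of the counts of dentate granule-like nuclei and 3.0% to 4.22% of those of CA3-like nuclei. Cdh20 was low in both classes, and the part of free RNA in these levels was examined only by subtracting it.

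The summed Pcdha and Pcdhg counts passed no test in any class where they could be tested. The Pcdha sum was 14 and 18 counts in Control and 17 and 19 in Kat6a-cKO CA3-like nuclei, and 58 and 67 against 42 and 47 in CA1-like nuclei (log2 fold change -0.35 ± 0.23, edgeR adjusted p = 0.732). The groups overlapped in CA3-like and not in CA1-like nuclei. The Pcdhg sum was 20 and 26 against 12 and 12 in dentate granule-like nuclei (-0.62 ± 0.36, edgeR adjusted p = 0.648). Pcdhb could not be tested.

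Genes that work with cadherins were taken from 6 lists of 55 genes in all. They included catenins and the p120 family, which bind the cadherin tail or link it to actin, and large cadherins of the superfamily. The rest were nectins and their adaptors, the WAVE complex that acts on actin, kinases and proteases of cadherins, and regulators of the clustered protocadherins. In CA3-like nuclei 0 of 51 tested genes were called by edgeR, against 0.0205% of all genes, and in CA1-like nuclei 0 of 53, against 0.0721%. In dentate granule-like and inhibitory nuclei 0 of 54 were called, against 0.52% and 0.0272% of all genes. All 10 catenin and p120 genes and all 9 WAVE genes were tested in these 4 classes. In OPC-like nuclei Clstn2, a calsyntenin of the postsynaptic membrane, rose from 107 and 102 CPM in Control to 178 and 157 in Kat6a-cKO, both above Control (0.71 ± 0.17, edgeR adjusted p = 0.0310). It was 1 of 44 tested list genes there, where 0.391% of all genes were called, and none fell. DESeq2 did not call Clstn2 (0.71, adjusted p = 1.00). The edgeR call was lost at Leiden resolution 2 (0.57, adjusted p = 0.197) and without Control replicate 1 (0.129), Control replicate 2 (0.272) or Kat6a-cKO replicate 1 (0.421).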

How the data were processed

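The authors deposited raw counts per gene and barcode as whole numbers, for all observed barcodes. The submitters' processing notes name Seurat 4.0.1 and mm10. The aligner, annotation, strand and treatment of reads that overlap several genes are not given in the sources used here. Of 55422 gene IDs, 54587 matched GENCODE M21 by ID and version, all 93 members among them.

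Barcodes with at least 5000 UMIs were kept. Doublets (1107 in all) were called by Scrublet (scanpy 1.11.5, expected rate 0.06) and left out. Counts were scaled to 10000 per nucleus and log-transformed, and 30 principal components of 2000 variable genes and 15 neighbours were used for Leiden clustering (leidenalg 0.10.2) at resolution 1. The 189 genes left out of clustering include the members. A cluster was named where at least 50% and at least 3 markers of a class were raised 2-fold. It stayed unnamed where markers of a second class competed, and glial clusters also where their median UMIs passed 50% of the median over all nuclei. The data were known when these naming thresholds were set. No class of microglia was tested.

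Counts were summed per library and class. edgeR 4.0.16 (R 4.3.3) with TMM, filterByExpr and the quasi-likelihood test compared genotypes within a class, with Benjamini-Hochberg adjustment over all genes. The SE of a log2 fold change was derived from the test, as its absolute value divided by the square root of the quasi-likelihood F statistic. It is thus no estimate of error apart from the p-value. Class differences and differences of genotype effect were fitted over all 4 libraries with the library as a block. CPM values carry no TMM factor. Free RNA profiles came from barcodes of 10 to 100 UMIs. The fits were tested on simulated data. Alternatives were DESeq2 1.42.0, no filter on low counts, Leiden resolution 2, a minimum of 8000 UMIs, free RNA subtracted, a replicate block and leaving out each library.

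Named were the members past a threshold, the 6 with the smallest p in each of 4 classes, the 3 with the highest ratio to the next class (at least 10 CPM), and the 6 largest called class differences. Other members are named to describe a level, a shared position or the lack of counts, and were chosen after their values were seen. Members and lists were chosen with earlier results of these data known.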

Additional observations from a re-analysis of the deposited data

Results flagged for a closer look

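The genotype effect on Cdh20 differed between CA1-like and dentate granule-like nuclei, with a difference of log2 fold changes of 1.17 (edgeR adjusted p = 0.0279). This call was lost with free RNA subtracted, and without Control replicate 1, Control replicate 2 or Kat6a-cKO replicate 1. With free RNA subtracted, 10 of all genes were called in this comparison, against 23 without the subtraction. In CA1-like clusters of at least 100 nuclei, Cdh20 was at 23.6 and 15.5 CPM in Control and 45.0 and 29.6 in Kat6a-cKO in the cluster with the highest level, and at 5.44 and 4.55 against 7.82 and 7.71 in the one with the lowest. Both Kat6a-cKO values lay above both Control values in each of these clusters.

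The genotype effect on Pcdh9 differed between CA3-like and dentate granule-like nuclei, with a difference of -0.26 (edgeR adjusted p = 0.00831). This call was lost with DESeq2, with free RNA subtracted and when either Kat6a-cKO library was left out. With free RNA subtracted, 11 of all genes were called in this comparison, against 48 without the subtraction. Pcdh9 was lower in both Kat6a-cKO libraries in CA3-like nuclei and higher in both in dentate granule-like nuclei.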

How the results depend on the processing

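In the class differences, 10 to 11 of the 11 members called between CA3-like and CA1-like nuclei were called again under each alternative run, and 14 to 16 of the 16 called in each of the other 3 comparisons. No named fold change reversed. The genotype results moved. Called members were 0 in CA3-like, 1 in CA1-like and 0 in dentate granule-like nuclei in the report. They were 1, 1 and 1 with DESeq2, 4, 4 and 4 with no filter on low counts, and 0, 0 and 0 with free RNA subtracted. Calls over all genes in these classes were 3, 12 and 90 in the report and 36, 113 and 226 with DESeq2. They were 299, 516 and 599 with no filter, and 3, 1 and 2 with free RNA subtracted. In cluster 4 of the CA1-like nuclei alone, 3 of 28 members were called, against 59 of all 14141 genes tested. This fit was added once the results were known. Leaving out 1 library gave 0 to 5 members in CA3-like, 1 to 4 in CA1-like, 0 to 5 in dentate granule-like, 0 to 1 in astrocyte-like (1 without Control replicate 1) and 0 to 1 in OPC-like nuclei (1 without Kat6a-cKO replicate 1). The difference between CA3-like and CA1-like nuclei had 0 called members, 1 with no filter, 1 at Leiden resolution 2 and 1 to 3 without 1 library. That between CA3-like and dentate granule-like nuclei had 1, 0 with DESeq2, 4 with no filter, 0 with free RNA subtracted and 0 to 6 without 1 library. That between CA1-like and dentate granule-like nuclei had 1, 5 with no filter, 0 with free RNA subtracted and 0 to 2 without 1 library. Over all genes, the difference between CA3-like and CA1-like nuclei had 41 calls, 183 with no filter and 88 at Leiden resolution 2. For CA3-like and dentate granule-like nuclei there were 48, 8 with DESeq2, 122 with no filter and 11 with free RNA subtracted. For CA1-like and dentate granule-like nuclei there were 23, 288 with no filter and 10 with free RNA subtracted. The cause of these moves was not tested. In CA1-like nuclei, edgeR also called more of all genes without any 1 library than with all libraries. In CA3-like and dentate granule-like nuclei it did so too, except without Kat6a-cKO replicate 1, where it called fewer. Over all genes it called more in astrocyte-like nuclei without Control replicate 1, and fewer in OPC-like nuclei without Kat6a-cKO replicate 1. With no filter, 299 genes of the whole table were called in CA3-like nuclei, against 3.

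Replicate numbers are shared by the groups, but the labels do not say that they pair libraries. Same-numbered libraries deviated together with r = 0.113 in CA3-like, 0.143 in CA1-like, 0.0836 in dentate granule-like and 0.0847 in inhibitory nuclei, over genes and for 2 pairs. The fit with the replicate block called 1 member in CA3-like, 3 in CA1-like, 1 in dentate granule-like, 0 in inhibitory, 1 in astrocyte-like, 0 in oligodendrocyte-like and 1 in OPC-like nuclei, and 0 cluster sums. Over all genes it called 178, 167, 240, 45, 41, 23 and 63 in these classes, against 3, 12, 90, 4, 2, 0 and 34 without the block.

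There were 2 libraries per group, and the classes were rebuilt from markers. Where 1 library was left out, its group had 1 library, and the spread came from the 2 of the other group. The minimum of 8000 UMIs left under 30 nuclei in some library of each glial class, so those fits were not run. Free RNA was subtracted as 1 profile per library, an approximation. The clustered genes could not be assessed at their counts.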

Other observations

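Cdh7, a type II cadherin, parted the libraries in a way that does not follow genotype. In dentate granule-like nuclei it was at 2.89 CPM in Control replicate 1 and at 25.8, 31.6 and 27.6 in the other 3 libraries. In CA3-like nuclei Control replicate 1 was at 2.36 CPM and the others at 7.76, 8.01 and 8.24. In CA1-like nuclei the same libraries lay close together, at 15.3, 14.1, 15.3 and 15.3, and in inhibitory nuclei Control replicate 1 was at 42.1 CPM against 30.9, 42.8 and 42.4. Cdh7 was chosen after its values were seen.

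In OPC-like nuclei, Cdh8 was at 7.10 and 13.7 CPM in Control and 17.8 and 47.9 in Kat6a-cKO, and Cdh9 at 17.8 and 11.2 against 28.2 and 41.3. Neither passed the test (edgeR adjusted p = 0.0667 and 0.175), and both are far more abundant in dentate granule-like nuclei. In the same order of libraries, Cdh8 had only 8, 11, 17 and 29 counts and Cdh9 only 20, 9, 27 and 25. In near-empty droplets Cdh8 was at 281 and 264 CPM in Control and 255 and 268 in Kat6a-cKO. Cdh9 was there at 170 and 147 against 154 and 148. Free RNA was an estimated 8.22% to 11.9% of OPC-like counts, and its part in these values was not tested. Both genes were chosen after their values were seen.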
